A study of Mus musculus with 2 samples.

Results

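The genes described here are 10 members of the epidermal growth factor (EGF) signalling system, taken from a table of 24532 gene IDs by matching each ID to a gene symbol and adding up the transcript rows of that ID. They are 6 ligand genes (Hbegf, Ereg, Areg, Tgfa, Btc and Nrg1), 3 receptor genes (Egfr, Erbb2 and Erbb3) and 1 inhibitor gene (Errfi1). RNA was sequenced from muscle stem cells of male C57BL/6 mice, in 1 library of double-knockout (dKO) cells and 1 library of wild-type (WT) cells. The dKO genotype is labelled with Pax7-CreER, a tamoxifen-activated Cre driven by the muscle stem cell gene Pax7, with Esr2–/–, which is loss of the estrogen receptor beta gene, and with a further Cre-deletable gene. The WT genotype is given as WT alone, so whether those mice carried the Cre is unknown. The labels of both libraries give the same tamoxifen dosing by mouth, at 20 mg/mL for 5 days from 3 months of age. Both libraries are marked 6M, a mark that the sources used here do not explain, and they give no number of mice per library. The cells were freshly sorted as CD31-, CD45-, Sca1- and Vcam1+.

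EGF family ligands are made as membrane-anchored precursors, are released by surface proteases and bind ErbB receptor tyrosine kinases. Erbb2 has no known ligand and acts as a partner of the other receptors, while Erbb3 has a weak kinase and receives neuregulins. Errfi1, also called Mig6, is induced by growth factor signals and binds the kinase domain of Egfr to block it, which makes it a feedback inhibitor. In skeletal muscle, ErbB receptors and neuregulins are known from the neuromuscular junction and the muscle spindle.

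Errfi1 had the largest difference among the members, and its RefSeq start regions are shown for that reason, beside that of Areg, which has a similar arrangement of motifs and had low, like counts in both libraries. The sequences are from the RefSeq promoter table (GRCm38.p6, 250 bases before to 50 bases after a start), which holds 7 regions for 6 of the members. All 3 shown here lie on the plus strand. The Errfi1 regions are chr4:150853546-150853845 (upstream start) and chr4:150854820-150855119 (downstream start), and that of Areg is chr5:91139349-91139648. Capitals mark matches on either strand to the letters of a cyclic AMP response element (TGACGTCA), a TATA box (TATAAA) and a GC box (GGGCGG), of which adjacent GC box matches may overlap.
Errfi1 upstream start: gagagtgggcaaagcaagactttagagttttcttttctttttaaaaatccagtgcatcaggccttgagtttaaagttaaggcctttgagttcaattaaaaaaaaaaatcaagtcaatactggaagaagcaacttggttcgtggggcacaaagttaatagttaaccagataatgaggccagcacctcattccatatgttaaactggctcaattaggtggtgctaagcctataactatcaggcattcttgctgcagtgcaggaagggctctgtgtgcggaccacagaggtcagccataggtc
Errfi1 downstream start: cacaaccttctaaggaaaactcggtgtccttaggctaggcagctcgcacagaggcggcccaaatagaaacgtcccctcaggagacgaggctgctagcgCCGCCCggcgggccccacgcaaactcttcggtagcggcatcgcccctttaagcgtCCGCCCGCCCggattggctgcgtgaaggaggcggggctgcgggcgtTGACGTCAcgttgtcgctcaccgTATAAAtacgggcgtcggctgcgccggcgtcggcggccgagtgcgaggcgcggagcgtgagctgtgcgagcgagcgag
Areg start: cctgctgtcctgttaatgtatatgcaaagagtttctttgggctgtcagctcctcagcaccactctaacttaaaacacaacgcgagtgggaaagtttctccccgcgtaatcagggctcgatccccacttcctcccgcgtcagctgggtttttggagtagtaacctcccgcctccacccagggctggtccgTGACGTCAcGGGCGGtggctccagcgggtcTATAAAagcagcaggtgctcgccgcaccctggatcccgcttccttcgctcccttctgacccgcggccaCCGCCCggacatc

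The downstream Errfi1 region held 1 TGACGTCA at bases -51 to -44 and 1 TATAAA at -28 to -23, counted from the start site, and 3 GC box matches. In the Areg region TGACGTCA lay at -61 to -54 and TATAAA at -31 to -26, with 2 GC box matches. The upstream Errfi1 region held none of these letters. Of 32851 RefSeq regions of this length, 1.79% held TGACGTCA, 13.6% held TATAAA, 35.7% held a GC box and 0.170% held TGACGTCA and TATAAA together. The AP-1 letters TGANTCA (7.81% of all regions) and the estrogen response element letters, GGTCA and TGACC with any 3 bases between them (0.0700%), were in none of the 7 regions of the members. A match is a stretch of letters, and binding was not measured.

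The dKO library held 43699831 counts and the WT library 36636680. Levels are in CPM, counts normalised to library size, with the sizes scaled by the trimmed mean of M values (TMM), and a log2 ratio is that of dKO CPM + 1 over WT CPM + 1. Genes reaching 10 counts in either library are termed measured (14885 genes), and those of them at or beyond a log2 ratio of 1 in either direction are termed 2-fold apart. Folds are CPM ratios without the added 1 and carry an exact 95% binomial interval. These intervals, and the Poisson intervals given with counts, cover counting error only. With 1 library per genotype there is no replicate and no test, so each value compares these 2 libraries. Esr2 had 45 counts (95% Poisson interval 32.8 to 60.2) in dKO and 71 (55.5 to 89.6) in WT, and as the labels do not say which part was deleted, this does not check the genotype.

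Of the 10 members 9 were measured, and Nrg1 was not. Errfi1, the feedback inhibitor, was about 2-fold higher in dKO cells, and the 8 other measured members were all within 1.5-fold on the log2 ratio. For Tgfa this rests on the added 1, since its CPM was 1.60-fold lower in dKO without it. By the 2-fold rule 0 of 9 members were higher, where 1.92% of all measured genes were, and 0 were lower, where 4.3% of all measured genes were. Errfi1 missed the higher call by less than its own counting interval. At 1.5-fold, 1 member (Errfi1) was higher, against 8.98% of all measured genes, and 0 were lower, against 13.1%. Tgfa passed the lower 1.5-fold line with library totals as the scaling (log2 ratio -0.62) and with 0.1 as the added value (-0.65). The median log2 ratio of the 9 members was -0.05, and that of all measured genes was -0.02. Among the members, 7 had a log2 ratio below 0 and 2 had one above 0. The counting interval of the fold lay above 1 for Errfi1, below 1 for Egfr, Erbb3 and Tgfa, and took in 1 for the other 5, all under TMM scaling.

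**Figure D1:**
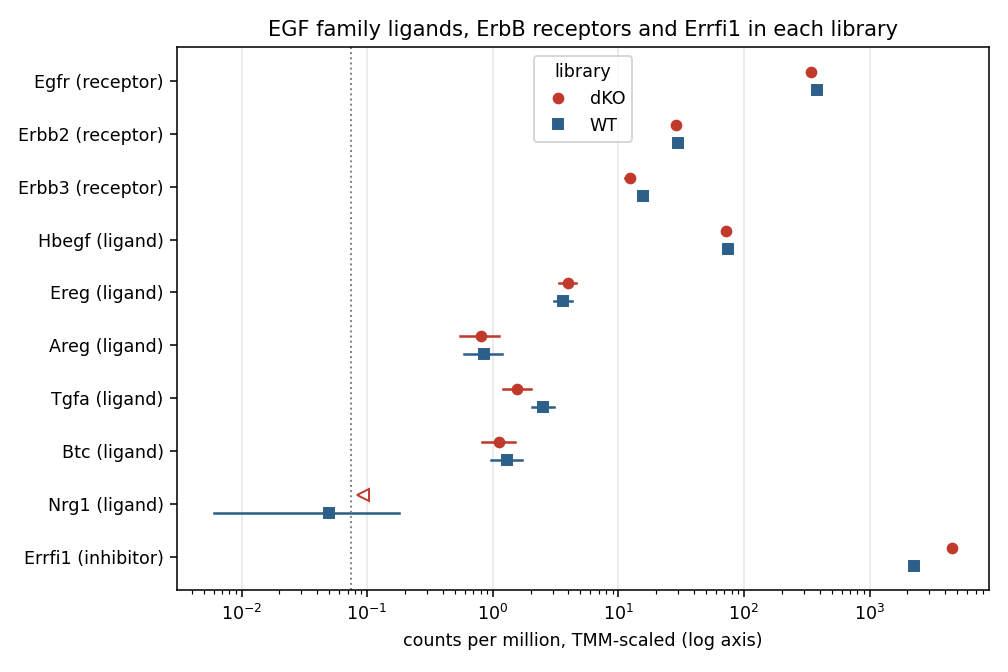
CPM of each member in the dKO library (red circles) and the WT library (blue squares) on a log axis, with 95% Poisson intervals of the counts; rows compare the libraries within a gene, since the values are not divided by transcript length. The open triangle is the upper limit of Nrg1 in dKO, which had 0 counts, and the dotted line is the level of 3 counts; Errfi1 stands at 4533 CPM in dKO and 2271 CPM in WT.

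**Figure D2:**
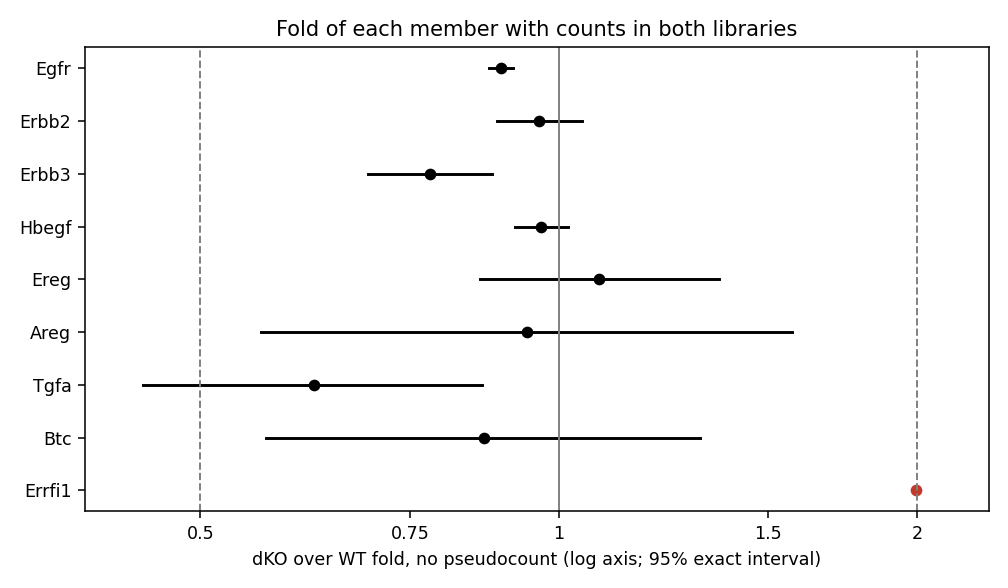
Fold of dKO over WT for the 9 members with counts in both libraries, on a log axis with exact 95% intervals for counting error; dashed lines mark 2-fold in each direction. Errfi1 lies on the 2-fold line at 1.996, and the intervals of Erbb2, Hbegf, Ereg, Areg and Btc take in 1.

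Levels per transcript length are CPM divided by the deposited transcript length in kilobases (RPKM), summed over the rows of a gene. By this measure the members spanned a wide range, with the inhibitor far above the receptors and ligands. The order in dKO was Errfi1, Egfr, Hbegf, Erbb2, Erbb3, Ereg, Areg, Btc, Tgfa and Nrg1. WT had the same order except that Tgfa stood above Btc. Errfi1 stood at 1502 RPKM in dKO and 753 RPKM in WT. That was 22.4 times the Egfr level in dKO and 10.3 times the Egfr level in WT. From Errfi1 down to Ereg, neighbours in the order had separate counting intervals in both libraries. The intervals overlapped for Ereg and Areg in both libraries, for Areg and the gene next below it, and for Btc and Tgfa. Such overlap does not show equal levels, and no interval was computed for the ratios between these neighbours. Ereg lay above Btc and Tgfa with separate intervals in both libraries.

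Errfi1 is a protein-coding gene (Entrez ID 74155) on chromosome 4, from 150853796 to 150868889 in GRCm38. It had 181413 counts in dKO and 90872 in WT. These were 0.415% of all dKO counts and 0.248% of all WT counts, which made it number 13 by counts in dKO and number 24 in WT. The level was 4533 CPM in dKO (4512 to 4554) and 2271 CPM in WT (2257 to 2286). The fold was 1.996 (1.98 to 2.01) and the log2 ratio 0.9966, which is just under the 2-fold line. Of all measured genes 291 had a higher log2 ratio. Abundant genes were higher in dKO as a whole. The 127 genes with a mean of at least 1000 CPM had a median log2 ratio of 0.54, 9 of them were 2-fold higher and 2 were 2-fold lower, and 9 had a higher log2 ratio than Errfi1. With a cubic trend on abundance and transcript length removed, the Errfi1 log2 ratio was 0.61, and with library totals alone as the scaling it was 0.74. The part that this abundance pattern has in the Errfi1 value was not tested. GENCODE M21 places an antisense gene, 1700045H11Rik, over 1031 bases at the 5′ end of Errfi1. No source used here says whether counting used strand, so reads from the overlap cannot be told apart. Antisense genes also overlap Egfr (Egfros, 15272 bases) and Ereg (Gm19610, 152 bases), to which the same applies. It applies too to opposite-strand genes of other types over Tgfa (Gm43917, 2360 bases) and Nrg1 (Gm26578, 7256 bases, and Gm22140, 120 bases). Erbb2 has 2 such overlaps, with Gm25048 (91 bases) and Mien1 (9 bases). The table has 1 row for Errfi1, of 3018 bases, so use of the upstream and the downstream start could not be separated.

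**Figure D3:**
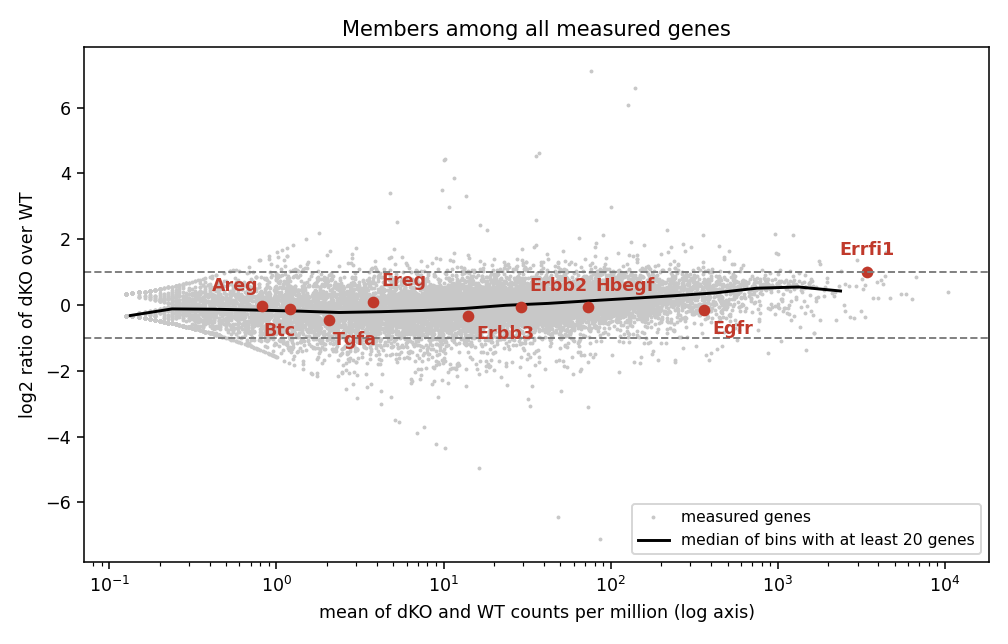
Log2 ratio of dKO over WT against mean CPM (log axis) for the 14885 measured genes (grey), with the 9 measured members in red and dashed lines at 2-fold. The black line joins the medians of bins with at least 20 genes and is higher for abundant genes, and Errfi1, to the right of its end, stands above it at a log2 ratio of 0.9966.

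Ratios between members need no scaling of the libraries. Errfi1 counts were 13.2 times the Egfr counts in dKO and 5.92 times in WT, a change of 2.23-fold (95% Wald interval of the log odds ratio, 2.18 to 2.29). Against Hbegf the change in the Errfi1 ratio was 2.06-fold (1.96 to 2.17), against Erbb2 it was 2.07-fold (1.91 to 2.25) and against Erbb3 it was 2.56-fold (2.28 to 2.88). With the rarer ligands as the partner it ran from 1.84-fold (1.47 to 2.31) for Ereg to 3.20-fold (2.34 to 4.38) for Tgfa. Errfi1 was thus higher relative to each of these 8 members, with all 8 intervals above 1. As Errfi1 had the largest fold of the members, the direction of all 8 ratios was fixed in advance. All 8 ratios share the Errfi1 counts, and they do not remove the abundance pattern. With the trend on abundance and length removed, the Errfi1 log2 ratio was 0.61, and the highest among the 8 partners was 0.42, for Ereg.

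Egfr was the main receptor gene in both libraries. It encodes the receptor of EGF, Tgfa, Areg, Hbegf, Btc and Ereg (Entrez ID 13649, protein-coding, chromosome 11, 16752203 to 16913907). It had 13745 counts in dKO and 15359 in WT, or 343 CPM in dKO and 384 CPM in WT. The fold was 0.895 (0.874 to 0.915), a 10.5% lower CPM value in dKO. Per length Egfr made up 88.4% of the summed RPKM of the 3 receptor genes in dKO and 88.1% in WT.

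The table has 2 rows for Egfr, and they differed in direction. The row of 5965 bases had 11911 counts in dKO and 13726 in WT, a fold of 0.867 (0.846 to 0.889). The row of 2678 bases had 1834 counts in dKO and 1633 in WT, a fold of 1.12 (1.05 to 1.20). The shorter row thus took 13.3% of Egfr counts in dKO (exact binomial interval 12.8 to 13.9) and 10.6% in WT (10.1 to 11.1). GENCODE M21 lists 2 RefSeq-paired protein-coding Egfr transcripts, of which 1 ends at 16887923 and the other at 16918158, but the table gives lengths and no transcript IDs, so the rows were not matched to them. How reads in shared exons were divided between the rows was not stated in any source used here.

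Erbb2, the co-receptor without a known ligand (Entrez ID 13866, chromosome 11, 98412484 to 98437716), had 1146 counts in dKO and 1189 in WT. Its level was 28.6 CPM in dKO and 29.7 CPM in WT, and the fold of 0.964 (0.888 to 1.05) took in 1, whereas under library totals the log2 ratio was -0.30, outside that interval. Erbb3, a neuregulin receptor (Entrez ID 13867, chromosome 10, 128567523 to 128589635), had 492 counts in dKO and 631 in WT. That is 12.3 CPM in dKO (11.2 to 13.4) and 15.8 CPM in WT (14.6 to 17.1), a fold of 0.779 (0.691 to 0.878). The Erbb3 to Erbb2 count ratio was 0.429 in dKO and 0.531 in WT, a change of 0.809-fold (0.701 to 0.933). Erbb3 is also a known gene of Schwann cells. Of 10 Schwann cell and glial markers, 8 had a log2 ratio above 0 and 0 were 2-fold apart, among them Sox10 with 942 counts in dKO and 737 in WT. The summed level of that list was 689 CPM in dKO and 708 CPM in WT. The fourth receptor of the family, Erbb4, was outside the member list and had 3 counts in dKO and 9 in WT.

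Hbegf, heparin-binding EGF-like growth factor (Entrez ID 15200, protein-coding, chromosome 18), was the main ligand gene. It had 2869 counts in dKO (95% Poisson interval 2765 to 2976) and 2966 in WT (2860 to 3075), or 71.7 CPM in dKO and 74.1 CPM in WT. The fold was 0.967 (0.918 to 1.02), which took in 1. That depends on the scaling, since the log2 ratio of -0.05 was -0.30 when library totals set the scaling and -0.22 after removal of the abundance and length trend, both outside the counting interval. Per length Hbegf made up 92.8% of the summed RPKM of the 6 ligand genes in dKO and 92.3% in WT. Its count relative to Egfr was 0.209 in dKO and 0.193 in WT, a change of 1.08-fold (1.02 to 1.14).

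Ereg, Areg and Btc, the genes of epiregulin, amphiregulin and betacellulin, lie close together on chromosome 5 with Epgn, the epigen gene. The 4 genes span 375.5 kb, from the start of Epgn at 91027517 to the end of Btc at 91402994 on GRCm38. All were low in both libraries, and none differed beyond counting error. Ereg (Entrez ID 13874, 91074617 to 91093649) had 158 counts in dKO (134 to 185) and 146 in WT (123 to 172), a fold of 1.08 (0.858 to 1.36). Areg (Entrez ID 11839, 91139599 to 91148432) had 32 counts in dKO (21.9 to 45.2) and 34 in WT (23.5 to 47.5), a fold of 0.941 (0.562 to 1.57). Btc (Entrez ID 12223) had 45 counts in dKO (32.8 to 60.2) and 52 in WT (38.8 to 68.2), a fold of 0.865 (0.567 to 1.31). The intervals of Areg and Btc are the widest of the 9 measured members, so a smaller difference was not detectable at this depth. Epgn, outside the member list, had 0 counts in both libraries, where 3 counts would be 0.0750 CPM in each.

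Tgfa, transforming growth factor alpha (Entrez ID 21802, protein-coding, chromosome 6, 86195038 to 86275744), had 63 counts in dKO (48.4 to 80.6) and 101 in WT (82.3 to 123). Its level was 1.57 CPM in dKO and 2.52 CPM in WT, and the fold of 0.624 (0.448 to 0.863) was the lowest among the members with counts in both libraries. The log2 ratio was -0.45, short of the 2-fold line. Most endothelial, immune and fibro-adipogenic progenitor markers were also lower in dKO, while most Schwann cell and glial markers were not, and the part of such cells in the Tgfa, Erbb3 and Egfr values was not tested. In bulk RNA, fewer cells of a type and less RNA per cell cannot be told apart. Nrg1, the neuregulin 1 gene (Entrez ID 211323, chromosome 8, 31807452 to 32891609), had 0 counts in dKO and 2 in WT, under the 10 counts of a measured gene, and no fold is given. The table has 1 Nrg1 row of 2103 bases, so counts of other Nrg1 transcripts were not analysed here.

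Markers of muscle stem cells were abundant in both libraries, with 12620 counts of Pax7 in dKO and 22335 in WT, and 42383 counts of Vcam1 in dKO and 23795 in WT. Of the 10 muscle stem cell markers 0 were 2-fold apart, 5 had a log2 ratio above 0 and 5 had one below 0. Their summed level was 10651 CPM in dKO and 8141 CPM in WT. Sdc4, the most abundant of them, gave 4872 CPM of that sum in dKO and 2980 CPM in WT. Endothelial markers were 2-fold lower in 9 of 12 cases, with a summed level of 361 CPM in dKO and 761 CPM in WT. The endothelial Pecam1 had 1673 counts in dKO and 4745 in WT, and Cdh5 had 1142 in dKO and 3519 in WT. Immune markers were 2-fold lower in 13 of 14 cases, summing to 61.4 CPM in dKO and 213 CPM in WT. The immune Ptprc had 17 counts in dKO and 200 in WT, and Itgam had 19 in dKO and 369 in WT. Markers of fibro-adipogenic progenitors, the connective tissue precursors of muscle, were 2-fold lower in 7 of 12 cases, with 4613 CPM in dKO and 5815 CPM in WT in sum. Of these, Pdgfra had 498 counts in dKO and 1177 in WT, and Ly6a had 386 in dKO and 2316 in WT. Mural markers were 2-fold lower in 3 of 9 cases, with 1166 CPM in dKO and 1653 CPM in WT in sum. The mural Rgs5 had 7597 counts in dKO and 10830 in WT, and Kcnj8 had 340 in dKO and 838 in WT. No marker of any of these lists was at 0 in either library.

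**Figure D4:**
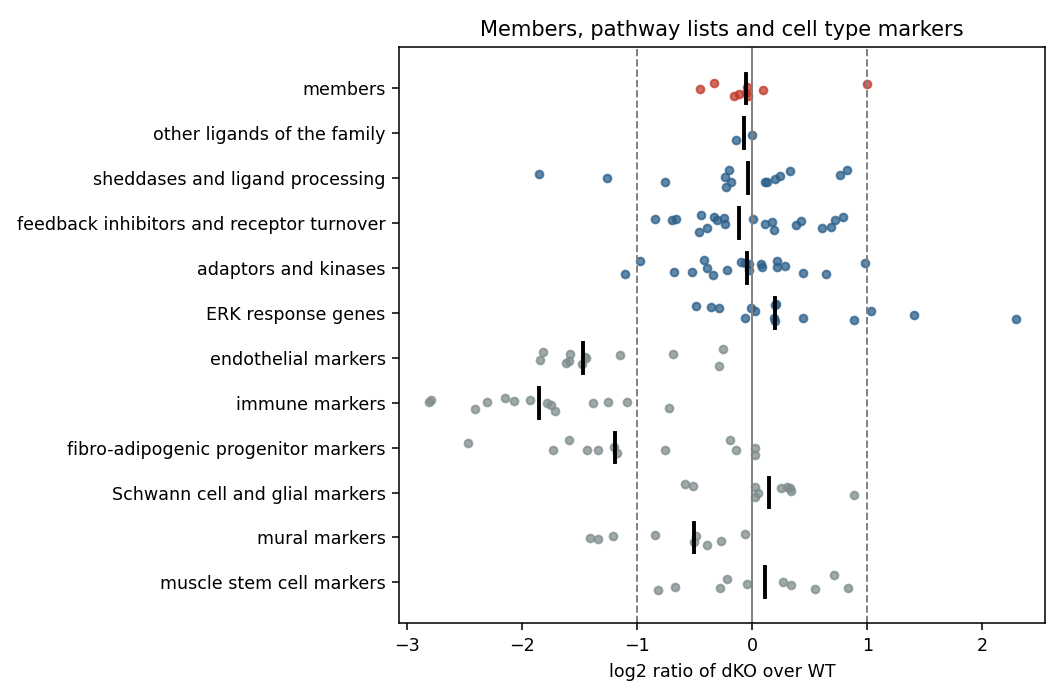
Log2 ratio of dKO over WT for each measured gene of the members (red), of the pathway lists (blue) and of the cell type marker lists (grey), with black bars at the list medians and dashed lines at 2-fold. The members sit near 0 except for Errfi1, and the endothelial, immune and fibro-adipogenic progenitor medians lie at -1.47, -1.86 and -1.19.

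Genes around the receptors had log2 ratios on both sides of 0. Medians of the pathway lists with measured genes ran from -0.12 for feedback genes to 0.20 for ERK response genes, beside -0.02 for all measured genes. The other ligand genes of the family were low or without counts. Nrg2, neuregulin 2, had 80 counts in each library, and Egf had 18 counts in dKO and 24 in WT. Nrg4 had 8 counts in dKO and 0 in WT, and Nrg3 had 0 in both. Of these 5 genes 2 were measured, 0 were 2-fold apart, and their median log2 ratio was -0.07.

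Surface proteases and other genes of ligand processing numbered 14, all of them measured. Of these 2 of 14 were 2-fold lower and 0 were 2-fold higher, beside 4.3% and 1.92% of all measured genes, and the list's median log2 ratio was -0.03. The lower genes were the metalloproteases Adam12, with 385 counts in dKO and 1498 in WT (3.89-fold lower, 3.48 to 4.36), and Adam8, with 157 counts in dKO and 431 in WT (2.75-fold lower, 2.28 to 3.32). The Adam8 log2 ratio of -1.26 was -3.68 when the row of highest share stood for each gene, so its size depends on the row choice. With a pseudocount of 5 it was -0.82, short of the 2-fold line. Adam17 and Adam10, named here for their role as the main ligand sheddases, had log2 ratios of -0.20 and -0.23. Furin, a proprotein convertase, and Rhbdf2, a partner of Adam17, had the 2 highest log2 ratios of the list, 0.82 and 0.76. Furin and Rhbdf2 were chosen after their values were seen. Both had a mean of 100 to 1000 CPM, where the median log2 ratio of measured genes was 0.26.

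Other feedback inhibitors and receptor turnover genes went in both directions. Of 20 genes, 0 were 2-fold higher and 0 were 2-fold lower, beside 1.92% and 4.3% of all measured genes. At 1.5-fold, the rule by which Errfi1 is called higher, 4 of 20 were higher, beside 8.98% of all measured genes, and 3 were lower, beside 13.1%. The 4 higher genes were the phosphatase genes Ptpn1 (log2 ratio 0.79) and Ptpn12 (0.72) and the inhibitor genes Spred1 (0.68) and Spry2 (0.60). They were named after their values were seen. All 4 had a mean of 100 to 1000 CPM, where the median log2 ratio of measured genes was 0.26. The part of the abundance pattern in their values was not tested. In the list as a whole 10 had a log2 ratio above 0 and 10 below 0, and the median was -0.12. The most abundant per length, by the sum of both libraries, were Spry1, a Sprouty inhibitor of receptor tyrosine kinase signals, and Lrig1, which promotes ErbB receptor degradation. Spry1 had 12429 counts in dKO and 16878 in WT (log2 ratio -0.44), and Lrig1 had 23092 in dKO and 20458 in WT (0.17). Of 20 adaptors and kinases, 1 was 2-fold lower and 0 were 2-fold higher, beside 4.3% and 1.92% of all measured genes, which is near the background. The list's median was -0.04. The lower gene was Eps8, an Egfr kinase substrate, with 226 counts in dKO and 533 in WT (2.36-fold lower, 2.02 to 2.77). Its log2 ratio of -1.11 was 0.06 when the row of highest share stood for each gene, and -0.85 with the trend on abundance and length removed, so this call does not hold under those settings. The abundant kinase gene Mapk3 had a log2 ratio of -0.06. Near the 2-fold line, and chosen after their values were seen, were the adaptor gene Grb2 (0.98) and the phosphoinositide 3-kinase subunit gene Pik3r1 (-0.97). Grb2 and Pik3r1 also had a mean of 100 to 1000 CPM.

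Genes known to respond to the ERK kinases, which act downstream of ErbB receptors, had 3 of 15 measured members higher by 2-fold and 0 lower, beside 1.92% and 4.3% of all measured genes. Their median log2 ratio was 0.20, and this list, like the others, was chosen with earlier results of these data known. Fosl1, an AP-1 subunit, had 14476 counts in dKO and 2927 in WT (4.94-fold, 4.75 to 5.15). Plaur, the urokinase receptor gene, had 8406 counts in dKO and 3142 in WT (2.67-fold, 2.57 to 2.79). Myc had 31764 counts in dKO and 15513 in WT (2.05-fold, 2.01 to 2.09). Its log2 ratio of 1.03 was 0.78 when library totals set the scaling and 0.60 after removal of the trend, which leaves 2 of 15 genes higher under each. All 3 genes had a mean of 100 to 1000 CPM, where 80 of 1955 measured genes were 2-fold higher. The other 12 measured genes of the list were within 2-fold, with Egr1 at a log2 ratio of 0.19 and Fos at -0.36, both named for their standing as ERK targets.

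**Figure D5:**
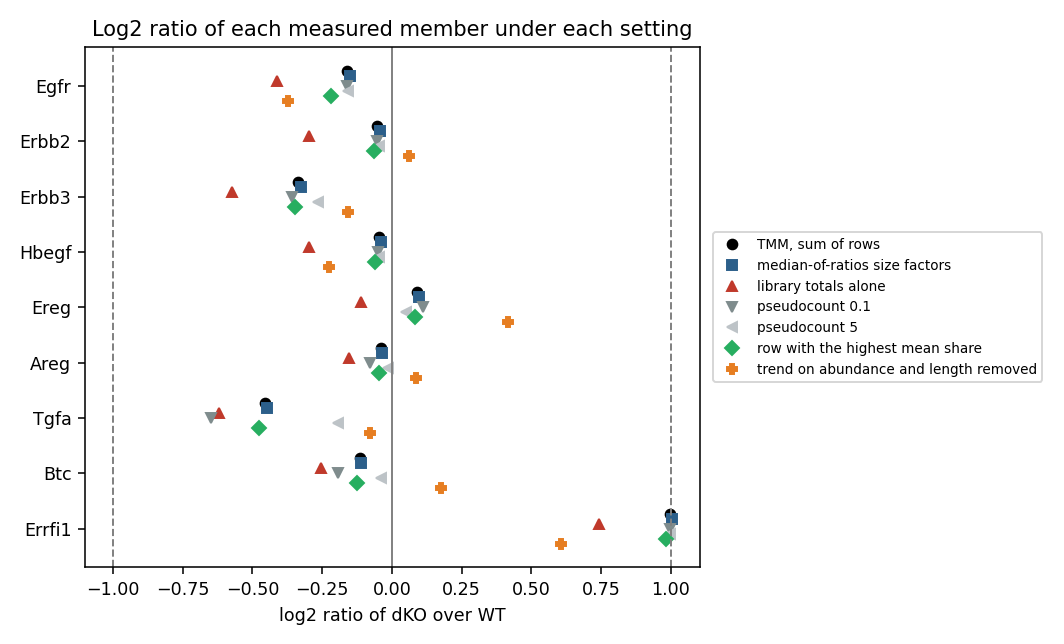
Log2 ratio of dKO over WT for the 9 measured members under the main choice (black circles) and 6 alternatives of scaling, pseudocount, row choice and trend, with dashed lines at 2-fold. Errfi1 lies between 0.61 and 1.005 under all of them, and the signs of Erbb2, Ereg, Areg and Btc differ between settings.

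Directions among the small differences depended on the scaling in part. Egfr, Erbb3, Hbegf and Tgfa had a log2 ratio below 0 under all 6 alternatives tried, but their size varied. Egfr lay between -0.41 (library totals) and -0.15, Erbb3 between -0.57 (library totals) and -0.16 (trend removed), Hbegf between -0.30 (library totals) and -0.04, and Tgfa between -0.65 (pseudocount of 0.1) and -0.08 (trend removed). Erbb2, Areg and Btc turned to 0.06, 0.09 and 0.17 with the trend on abundance and length removed, and Ereg turned to -0.11 under library totals.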

How the data were processed

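RNA-seq read counts of 1 dKO and 1 WT library were analysed. The deposited table gives, per the file headers, read counts (whole numbers) for transcripts, each listed with its gene ID and length. TopHat2 2.0.9, bedtools, edgeR and mm10 are named in the submitters' processing notes, without role, and no source used here states the counting rule, strand setting or read type. Its 36780 rows belong to 24532 gene IDs, and 24462 IDs were given a symbol from RefSeq (GRCm38.p6). Rows of an ID were summed. Library sizes were scaled by TMM in edgeR 4.0.16 (R 4.3.3), with factors of 0.916 for dKO and 1.09 for WT. The steps were tested on simulated data. No p-value was computed with 1 library per group. RPKM divided each row's counts by its own length and summed the rows. Alternatives used median-of-ratios size factors (DESeq2 1.42.0), library totals, other pseudocounts, minimum counts, fold rules and row choices, and a trend removal. The members, gene lists, motifs and alternatives were chosen with earlier results of these data known. Named were all members, up to 4 members of each pathway list that were 2-fold apart, the 2 most abundant per length where fewer than 2 were, and the first 2 genes of each marker list, apart from a few genes that are not reported here.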

Additional observations from a re-analysis of the deposited data

How the results depend on the processing

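With 1 library per genotype, the depth limits Areg, Btc, Tgfa and Nrg1 most, and no alternative replaces a replicate. No paired analysis was possible because each group has 1 library. The count of members 2-fold higher was 0 and became 1 (Errfi1) with median-of-ratios size factors (log2 ratio 1.005) and under the 1.5-fold rule, and that of lower members was 0 under all alternatives. The Errfi1 log2 ratio of 0.9966 was 0.74 under library totals, 0.98 with the row of highest share and 0.61 with the trend on abundance and length removed. Library totals moved the median of all measured genes to -0.24, against -0.02, and gave 130 genes higher and 1040 lower, so that lower genes were 88.9% of those 2-fold apart, against 69.1% under TMM. Counts over all genes were 286 higher and 640 lower under TMM, 698 and 1653 with a pseudocount of 0.1, 154 and 187 (54.8% lower) with one of 5, 474 and 936 by the row of highest share, 25 and 56 under the 4-fold rule, and 305 and 420 (57.9% lower) with the trend removed. Under the 1.5-fold rule 2 processing genes, 4 feedback genes and 2 adaptors were higher, and 3 processing genes, 3 feedback genes and 3 adaptors were lower. Lower processing genes numbered 1 with a pseudocount of 5 and 0 under the 4-fold rule. Lower feedback genes numbered 1 and lower adaptors 2 under library totals, and lower adaptors 0 with a pseudocount of 5, with the row of highest share and under the 4-fold rule. ERK response genes 4-fold higher numbered 1. Without division by length, Errfi1 stood at 13.2 times Egfr in dKO, and 2 members took another place in the order. Apart from the changed settings themselves, the cause of these shifts was not tested.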
